A study of Mus musculus with 12 samples.

Results

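The 2'-5'-oligoadenylate synthetases (OAS) are antiviral enzymes of the interferon response. When they bind double-stranded RNA they join ATP into short 2'-5'-linked oligoadenylates, which act as second messengers of the antiviral response. Their genes are transcribed at a low level in resting macrophages and are switched on by type I interferon, which macrophages release when LPS from the outer membrane of Gram-negative bacteria engages TLR4. The OAS-like proteins carry the same fold with ubiquitin-like domains added, and mouse Oasl1 is known as a repressor of Irf7 translation. Described here are 6 genes of the family, chosen by symbol among the 38215 genes of the count table: Oas1a, Oas1g, Oas2, Oas3, Oasl1 and Oasl2. The other Oas genes and genes of the interferon response are given beside them.

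The cells were RAW264.7, an established mouse macrophage line of BALB/c origin. The 12 libraries of polyadenylated RNA formed 4 groups of 3. Cells had received either a nontargeting (control) siRNA or an siRNA against SF3a1, and each of these was left without LPS or given LPS, so that nucleofection with an siRNA was common to all groups. LPS was applied at 20 ng/ml for 4 hours, 24 hours after the siRNA. SF3a1 is a subunit of the U2 snRNP-associated splicing factor SF3a, and the comparisons ask how its inhibition changes transcript levels with and without LPS. One cell line was studied, and p-values measure the spread between these libraries.

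Reads counted on genes ran from 20659511 to 40840082 per library with control siRNA and no LPS, and from 13021502 to 41091887 with control siRNA and LPS. The SF3a1 siRNA libraries had 12746019 to 27789833 (no LPS) and 17174058 to 36506558 (LPS). The first replicate of each group came from 2 sequencing runs and had its group's highest total. Values of replicate 1 stood apart from those of replicates 2 and 3 for several genes. In the control siRNA with LPS group, for example, the level of Ifnb1, the interferon-β gene, was 4.92 CPM (counts scaled to a common library size with edgeR's TMM factors) in replicate 1, 27.5 CPM in replicate 2 and 26.0 CPM in replicate 3.

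Macrophage markers were present in every library, 9 of 10 in 1 library and 10 of 10 in the others. These markers (Ptprc, Csf1r, Itgam, Adgre1, Cd68, Cd14, Lyz2, Fcgr1, Mrc1 and Spi1) summed to between 9902 and 16517 CPM, with Lyz2 the most abundant. The 16 markers of T cells, B cells, neutrophils, fibroblasts and epithelial cells together summed to between 0.213 and 2.12 CPM, or 5 to 50 counts per library. Sf3a1 itself was measured at 173, 216 and 185 CPM in the libraries with control siRNA and no LPS and at 27.1, 27.5 and 32.1 CPM with SF3a1 siRNA and no LPS. With LPS it was 150, 194 and 157 CPM with control siRNA and 30.3, 26.7 and 45.0 CPM with SF3a1 siRNA. Every SF3a1 siRNA library was below every control library, and edgeR's quasi-likelihood test gave a log2 fold change of -2.73 (SE, the standard error, 0.204, adjusted p = 1.14e-05) without LPS and -2.30 (SE 0.200, adjusted p = 1.47e-05) with LPS.

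All 6 genes lie on chromosome 5 of mouse genome mm10, in a pair of clusters. Oasl2 (ENSMUSG00000029561, 114896936 to 114912234) and Oasl1 (ENSMUSG00000041827, 114923240 to 114937915) are neighbours on the forward strand. Oas2 (ENSMUSG00000032690, 120730333 to 120749853) and Oas3 (ENSMUSG00000032661, 120753098 to 120777661) are neighbours on the reverse strand, 3.24 kb apart. Oas1g (ENSMUSG00000066861, 120876142 to 120887613) and Oas1a (ENSMUSG00000052776, 120896256 to 120907521) are on the reverse strand with 8.64 kb between them. Oas2 overlaps Gm43068 and Oasl1 overlaps Gm13822 on the opposite strand, and the sources used here do not state if strand was used in counting, so their reads cannot be told apart from those of these antisense genes.

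Oas1a and Oas1g are near-identical copies. Their coding sequences matched at 1065 of 1101 positions (96.7%), while Oasl1 and Oasl2 matched at 59.3% of aligned positions. Of all 30-nt stretches of Oas1a transcripts, 69.5% also occurred in a transcript of another gene, nearly always Oas1g, and for Oas1g it was 55.6%. At 100 nt the shares were 40.9% and 31.2%. Only uniquely mapping reads were counted, so the levels of Oas1a and Oas1g are uncertain. The same share at 30 nt was 2.45% for Oas3, 1.43% for Oasl2, 0.484% for Oasl1 and 0 for Oas2.

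The promoters are shown as a description of the genes, and their part in the rise of the members with LPS was not tested. The interferon-stimulated response element (ISRE) is a sequence through which type I interferon acts on target genes. The 100 bases before the RefSeq start site (GRCm38.p6) are given 5′ to 3′ on the strand of the gene for the 5 members that matched the promoter table. Capitals mark the core searched, which is GAAA, any 2 bases and GAAA again, on both strands. The windows are chr5:120907526-120907625 (reverse strand) for Oas1a, chr5:120887614-120887713 (reverse strand) for Oas1g, chr5:120777660-120777759 (reverse strand) for Oas3, chr5:114923140-114923239 (forward strand) for Oasl1 and chr5:114896834-114896933 (forward strand) for Oasl2.
Oas1a: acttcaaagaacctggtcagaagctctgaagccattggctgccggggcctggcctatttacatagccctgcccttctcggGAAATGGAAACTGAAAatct
Oas1g: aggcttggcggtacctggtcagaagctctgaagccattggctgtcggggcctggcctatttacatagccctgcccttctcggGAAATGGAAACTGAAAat
Oas3: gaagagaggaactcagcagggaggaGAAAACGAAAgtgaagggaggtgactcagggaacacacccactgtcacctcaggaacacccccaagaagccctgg
Oasl1: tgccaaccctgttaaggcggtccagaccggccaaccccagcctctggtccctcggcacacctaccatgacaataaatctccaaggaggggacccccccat
Oasl2: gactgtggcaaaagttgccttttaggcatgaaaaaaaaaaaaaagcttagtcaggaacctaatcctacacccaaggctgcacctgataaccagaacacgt
Oas1a held overlapping matches beginning at -20 and -14 relative to the start site, and Oas1g held the same pair of matches at -18 and -12. Oas3 held 1 match at -75. These letters were not in the windows of Oasl1 and Oasl2, nor in the full 300 bases (250 before and 50 after the start) searched for them. Among 32544 RefSeq promoters, 3.45% held the core in those 300 bases and 0.989% in the 100 bases before the start. A match describes the letters and is not a measured binding site. The windows of Oas1a and Oas1g were 90.2% identical, and no other pair passed 51.7%.

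Every member rose with LPS in control cells. The plot of levels by library shows all 12 libraries for each gene.

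**Figure D1:**
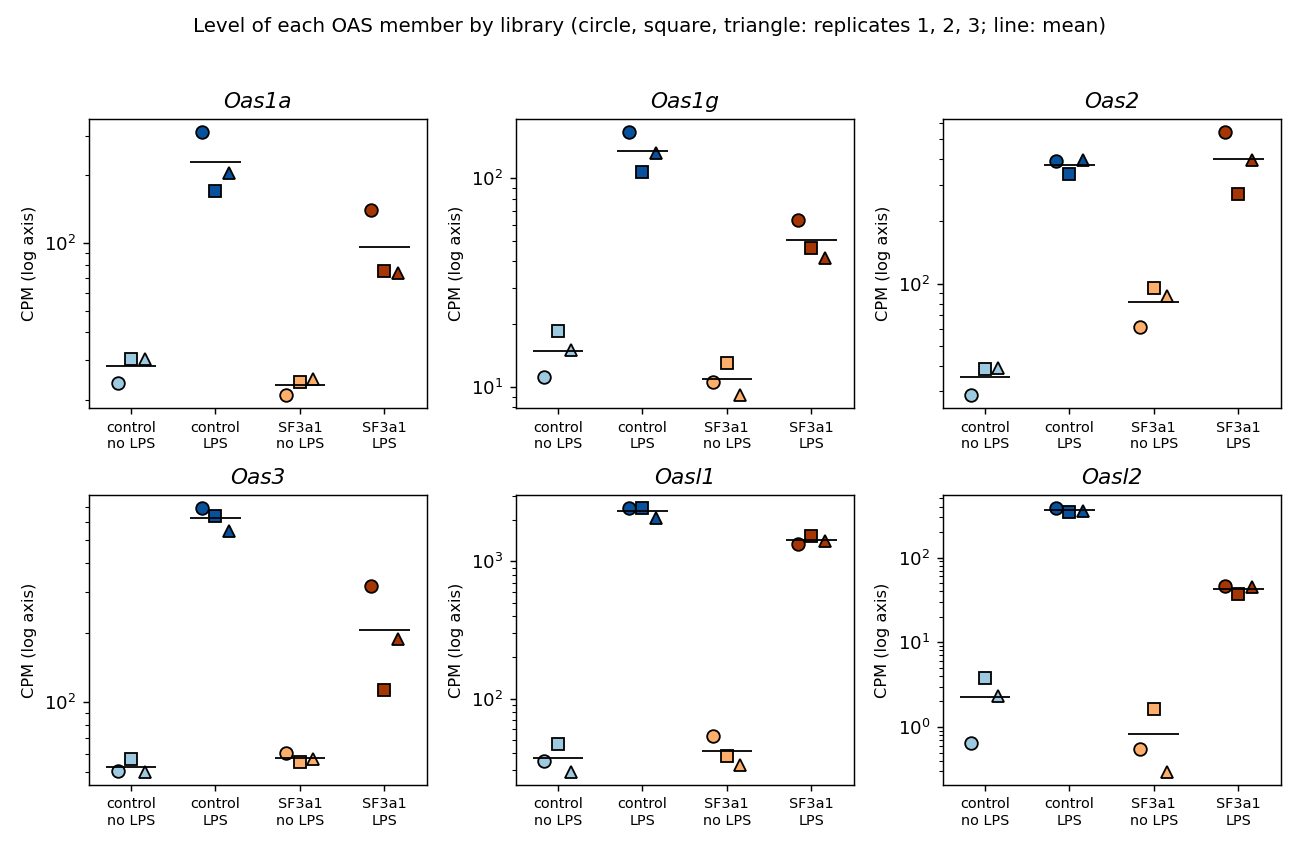
Level in CPM (log axis, scaled separately for each gene) of the 6 members in each of the 12 libraries, by group, with the mean of each group as a line. All LPS libraries are above all libraries without LPS for each gene, the SF3a1 siRNA libraries with LPS are below the control libraries with LPS for every member but Oas2, and Oas2 is higher with SF3a1 siRNA without LPS.

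The OAS-like genes had the largest rises. Oasl2 was measured at 0.642, 3.75 and 2.34 CPM without LPS (28, 84 and 55 reads) and at 382, 346 and 356 CPM with LPS (log2 fold change 7.39, SE 0.565, adjusted p = 1.01e-06). Oasl1 was 35.1, 46.5 and 29.4 CPM without LPS and 2422, 2432 and 2068 CPM with LPS (log2 fold change 5.96, SE 0.245, adjusted p = 1.12e-08). Oasl2 was the member nearest to silence in resting cells, and after LPS its libraries were close together.

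The synthetases Oas1a, Oas1g, Oas2 and Oas3 rose 8.12-fold to 11.9-fold, below the 62.4-fold of Oasl1 and the 168-fold of Oasl2. Oas3, the longest member, was 50.4, 56.7 and 50.2 CPM without LPS and 689, 638 and 548 CPM with LPS (log2 fold change 3.58, SE 0.299, adjusted p = 2.23e-06). Oas2 was 28.7, 38.4 and 39.0 CPM without LPS and 392, 338 and 396 CPM with LPS (log2 fold change 3.41, SE 0.261, adjusted p = 1.01e-06). Oas1a and Oas1g rose by 3.02 and 3.18 on the log2 scale (SEs 0.286 and 0.251, adjusted p = 6.47e-06 and 1.39e-06). Oas1a reached 313, 170 and 205 CPM and Oas1g 167, 107 and 132 CPM, with replicate 1 the highest for both, and no LPS library of any member overlapped a library without LPS. The share of all genes without such overlap was not determined, here or in the other comparisons, so overlap only describes the genes named. A gene was called when its adjusted p did not exceed 0.1. By that rule 6 of 6 members were higher, beside 13.8% of the 14983 genes tested (32.1% in either direction, 18.3% lower). The median log2 fold change of the members was 3.49, beside -0.02 over all genes tested. In bulk RNA, fewer responding cells and less RNA per cell cannot be told apart.

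Levels were compared per length. Divided by the kilobases of merged exons, Oas1a (15.0 ± 2.02 CPM per kb, SD, n = 3) and Oasl1 (14.2 ± 3.35) led in resting control cells and their libraries overlapped. Oas2 (7.95 ± 1.30), Oas3 (7.41 ± 0.521) and Oas1g (6.40 ± 1.596) followed, each overlapping the next, and Oasl2 (0.352 ± 0.244) was last and apart from the others. After LPS with control siRNA, Oasl1 stood apart at 885 ± 79.6 CPM per kb. It was followed by Oas1a (122 ± 39.5), Oas3 (88.4 ± 10.1) and Oas2 (84.4 ± 7.23), where neighbours overlapped, and then by Oas1g (57.7 ± 12.9) and Oasl2 (56.7 ± 2.85), which overlapped each other. With the length of the longest coding transcript in place of merged exons, Oasl1 stayed first after LPS and Oasl2 moved up to the fourth place at 116 CPM per kb, above Oas2. In resting control cells Oasl1 (17.0 CPM per kb) was then first, overlapping Oas1a (15.0), and Oas3 (11.1) stood above Oas2 (8.93) without overlap, so parts of the order, the first place in resting cells among them, depend on the length used.

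Without LPS, SF3a1 siRNA raised Oas2 and changed no other member past the threshold. Oas2 was 28.7, 38.4 and 39.0 CPM with control siRNA and 61.3, 95.3 and 87.2 CPM with SF3a1 siRNA. The groups did not overlap, and the log2 fold change was 1.20 (SE 0.242, adjusted p = 0.00299, edgeR quasi-likelihood test). All 3 SF3a1 siRNA libraries without LPS had more reads outside genes (27.2%, 21.6% and 20.8%) than the control libraries without LPS (18.2%, 19.6% and 17.8%), and the part of this in the result was not tested. Oas2 was the 1 member of 6 called, beside 33.8% of all genes tested in either direction and 13.7% higher. Values for the others were -0.28 (SE 0.269) for Oas1a, -0.45 (SE 0.239) for Oas1g, 0.13 (SE 0.272) for Oas3 and 0.17 (SE 0.200) for Oasl1 on the log2 scale, with adjusted p between 0.195 and 0.775 and overlapping libraries. Oas1a was 23.9, 30.6 and 30.4 CPM with control siRNA and 21.0, 24.1 and 24.9 CPM with SF3a1 siRNA. Oas1g was 11.2, 18.6 and 15.1 CPM with control siRNA and 10.6, 13.0 and 9.15 CPM with SF3a1 siRNA. Oasl1 was 53.7, 38.2 and 33.0 CPM with SF3a1 siRNA, within or near its control values, and its sign turned (-0.053) without SF3a1 siRNA no LPS replicate 1.

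Oasl2 was close to the threshold in resting cells. It had 28, 84 and 55 reads with control siRNA and 15, 29 and 4 reads with SF3a1 siRNA, or 0.547, 1.62 and 0.298 CPM in the latter, and the groups overlapped. Its log2 fold change was -1.37 (SE 0.589, adjusted p = 0.108). With a replicate block in edgeR it was -1.30 and past the threshold (adjusted p = 0.0889), so 2 members were called, beside 47.1% of all genes tested in that fit. With replicates 2 and 3 alone 3 members were called, beside 41.3% of all genes: Oas2, Oasl2 (-1.55, adjusted p = 0.0196) and Oas1g (-0.60, adjusted p = 0.0398). Oasl2 was also called without control siRNA no LPS replicate 1 (-1.77, adjusted p = 0.0106) and without SF3a1 siRNA no LPS replicate 2 (-2.21, adjusted p = 0.0358).

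With LPS, SF3a1 siRNA lowered every member but Oas2. Oasl2 fell the furthest, from 382, 346 and 356 CPM with control siRNA to 46.1, 37.2 and 45.2 CPM with SF3a1 siRNA, 8.43-fold lower (log2 fold change -3.07, SE 0.452, adjusted p = 0.000338). Oas3 fell from 689, 638 and 548 CPM to 317, 113 and 187 CPM (-1.60, SE 0.276, adjusted p = 0.000949). The SF3a1 siRNA libraries of Oas3 were spread, with replicate 1 highest, but did not reach the control libraries.

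The smallest of the falls was that of Oasl1, the repressor of Irf7 translation. It was 2422, 2432 and 2068 CPM with control siRNA and 1332, 1514 and 1410 CPM with SF3a1 siRNA (-0.70, SE 0.198, adjusted p = 0.0174). Oas1a was 140, 75.3 and 73.8 CPM and Oas1g 63.3, 46.3 and 41.7 CPM with SF3a1 siRNA. Their log2 fold changes were -1.25 (SE 0.268, adjusted p = 0.00374) and -1.42 (SE 0.234, adjusted p = 0.000724). For both genes every SF3a1 siRNA library was below every control library.

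Oas2 had no detectable change in this comparison. It was 392, 338 and 396 CPM with control siRNA and 544, 272 and 396 CPM with SF3a1 siRNA, where the libraries lay on either side of the control values. The log2 fold change was 0.11 (SE 0.237, adjusted p = 0.787), and it was -0.17 without SF3a1 siRNA with LPS replicate 1. So 5 of 6 members were called lower with LPS, beside 20.4% of all genes tested, and the median over the 6 was -1.33 beside -0.04 over all genes. These 5 genes were called lower in each of the 19 alternatives tried, among them each library left out in turn.

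**Figure D2:**
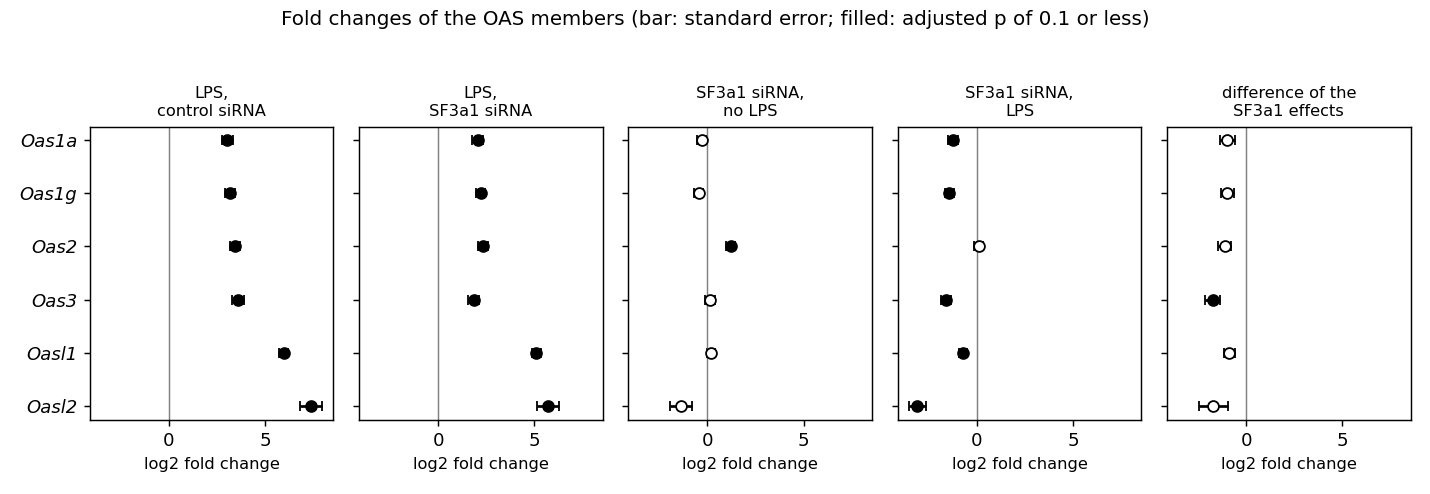
Log2 fold change of each member (horizontal axis) in 4 comparisons and the difference between the SF3a1 siRNA effects with and without LPS, with bars for the standard error and filled points where the adjusted p is 0.1 or less. LPS raised all 6 members with either siRNA, SF3a1 siRNA with LPS lowered 5, and Oas2 was called higher with SF3a1 siRNA without LPS.

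LPS still raised all members in SF3a1 siRNA cells, 6 of 6 beside 6.6% of all genes tested called higher, 4.06% lower and 10.7% in either direction (20.8% with the replicate block, and 6.88%, 6.92% or 7.05% without SF3a1 siRNA no LPS replicate 1, 2 or 3). The log2 fold changes were 5.69 (SE 0.570) for Oasl2, 5.09 (SE 0.236) for Oasl1, 2.32 (SE 0.249) for Oas2, 2.21 (SE 0.245) for Oas1g, 2.05 (SE 0.277) for Oas1a and 1.84 (SE 0.280) for Oas3, with adjusted p from 9.73e-08 to 0.00108. For each of them no LPS library overlapped a library without LPS. After LPS with SF3a1 siRNA the order per kilobase of merged exons was Oasl1 (544 ± 35.1 CPM per kb, SD, n = 3), Oas2 (90.8 ± 30.6), Oas1a (51.2 ± 20.1), Oas3 (29.1 ± 14.6), Oas1g (21.6 ± 4.86) and Oasl2 (6.72 ± 0.764). The libraries of Oas2, Oas1a, Oas3 and Oas1g overlapped from neighbour to neighbour, while Oasl1 and Oasl2 stood apart at the ends.

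The effect of SF3a1 siRNA was more negative with LPS than without it for each of the 6 members, and the difference was past the threshold for Oas3 alone. For Oas3 the difference was -1.74 on the log2 scale (SE 0.386, interaction adjusted p = 0.0387 in edgeR), while its level did not change detectably with SF3a1 siRNA in resting cells (50.4, 56.7 and 50.2 CPM against 60.3, 55.2 and 56.9 CPM). That is 1 of 6 beside 3.47% of all genes tested, and 1.94% in this direction. The other differences were -1.70 (SE 0.747) for Oasl2, -1.09 (SE 0.337) for Oas2, -0.97 (SE 0.378) for Oas1a, -0.97 (SE 0.333) for Oas1g and -0.87 (SE 0.282) for Oasl1, with adjusted p from 0.136 to 0.344.

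This count moved with the model. With the replicate block, 4 members were called, beside 11.7% of all genes tested in that fit: Oas3 (adjusted p = 0.00637), Oasl1 (0.0341), Oas2 (0.0588) and Oas1g (0.0834). All 6 were called with no filter on low counts, beside 3.25% of all genes, and 4 with DESeq2, beside 6.58%. Leaving out SF3a1 siRNA with LPS replicate 1 called Oas1a (-1.34, adjusted p = 0.0531) and Oas2 (-1.37, adjusted p = 0.0471) beside Oas3. Leaving out control siRNA no LPS replicate 2 added Oasl1 (-1.11, adjusted p = 0.0897), and leaving out SF3a1 siRNA no LPS replicate 1 added Oas2 (-1.26, adjusted p = 0.0942). The direction was negative for all 6 members in each of the 18 alternatives.

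Relative to the other members, Oas2 was higher with SF3a1 siRNA both without and with LPS. The ratio of its counts to those of each other member was taken within each library, which removes the library total. The comparison was chosen after the values above had been seen. The log2 ratio of Oas2 to Oas3 was -0.81, -0.56 and -0.36 in control cells without LPS and 0.02, 0.79 and 0.62 with SF3a1 siRNA. With LPS it was -0.81, -0.91 and -0.47 with control siRNA and 0.78, 1.27 and 1.08 with SF3a1 siRNA. In both states all SF3a1 siRNA libraries were above all control libraries, and the same held for the ratios to Oas1a, Oas1g and Oasl2.

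**Figure D3:**
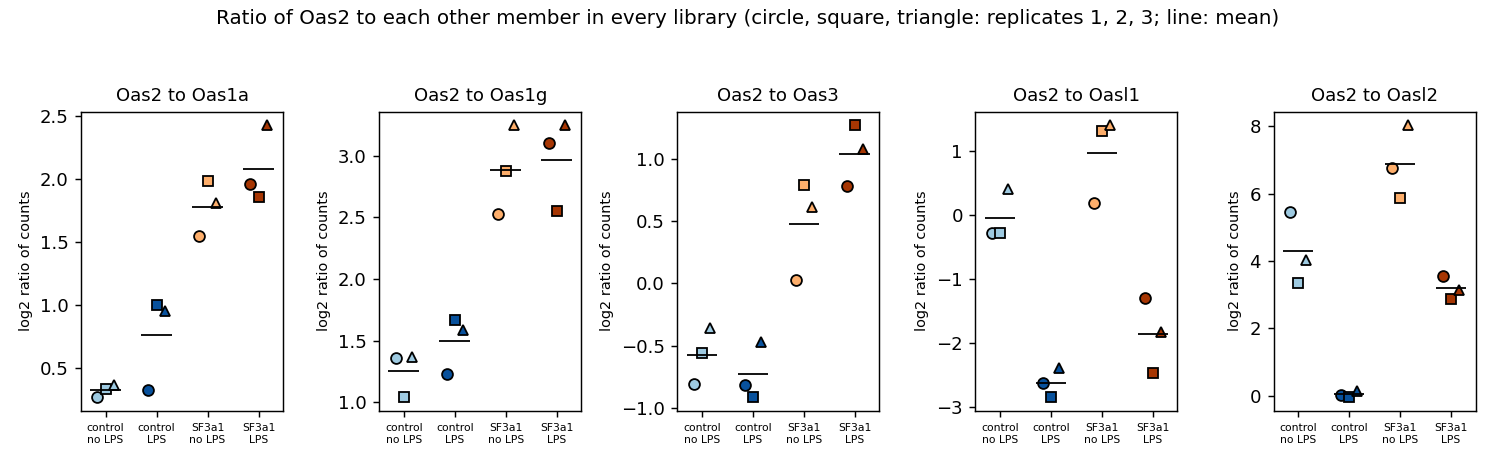
Log2 ratio of Oas2 counts to the counts of each other member (0.5 added to both) in every library, by group, with the mean of each group as a line and a separate vertical scale for each pair. Without and with LPS, SF3a1 siRNA libraries lie above control libraries for Oas1a, Oas1g, Oas3 and Oasl2, and overlap them for Oasl1.

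Averaged over both LPS states, the log2 ratio was higher with SF3a1 siRNA by 1.39 against Oas1a, 1.55 against Oas1g, 1.42 against Oas3 and 2.87 against Oasl2. Each of these had a two-sided p of 0.005 in an exact permutation test of the siRNA labels within each LPS state, which is the smallest that its 400 arrangements can give, and an adjusted p of 0.0187 over the 15 pairs of members. Against Oasl1 the shift was 0.89 (exact permutation p = 0.025, adjusted p = 0.0417), and libraries of the siRNA groups overlapped in both states. Between libraries of the same number all 6 differences were above 0 for each of the 5 ratios, from 0.37 to 1.59 against Oasl1. When labels were swapped only within these pairs, a test added after the data were seen, each of the 5 had an exact permutation p of 0.0312, the smallest that 64 arrangements can give, and an adjusted p of 0.0426. Of the 10 pairs without Oas2, 5 also had an adjusted p of at most 0.1 in the first test and 6 in the paired one, so shifts between members were not particular to Oas2. Oasl2 was lower against each other member, by 1.98 against Oasl1 (exact permutation p = 0.01, adjusted p = 0.03), 1.48 against Oas1a (adjusted p = 0.0375), 1.45 against Oas3 (adjusted p = 0.0525) and 1.32 against Oas1g (adjusted p = 0.0375). Oas1g was lower against Oasl1 (-0.66, exact permutation p = 0.02, adjusted p = 0.0375). The ratio of Oas1a to Oas1g, the near-identical copies, shifted by 0.16 (exact permutation p = 0.235, adjusted p = 0.271). The pairs share genes and are not independent of each other. The Oas2 ratios were chosen after its values were seen, so their p-values are no independent test of its shift.

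The usage of exon bins, the non-overlapping pieces of the merged exons, was compared in 11 libraries, control siRNA with LPS replicate 3 being the library not analysed here. None of the 6 members had a bin past the threshold of edgeR's diffSpliceDGE with control siRNA and LPS, with SF3a1 siRNA without LPS or with SF3a1 siRNA and LPS. Genes with such a bin were 0.462%, 6.16% and 5.03% of the 10609 tested in the same order, and called bins were 0.0801%, 0.626% and 0.492% of all bins tested. These were 49, 653 and 534 genes, against 129, 1217 and 1102 with the replicate block. With 1 library left out of a group of 3 they were 24 to 60, 382 to 688 and 337 to 603. Of the 90 bins of the members, 2 had an unadjusted p under 0.05 in each comparison. limma's diffSplice called 1 member, Oas3, with SF3a1 siRNA and LPS, where it called 463 genes in all, and 0 in the other comparisons. On simulated data diffSpliceDGE missed most of the changed bins and made more false calls than its threshold allows, so a count of 0 does not show that usage was the same.

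The bins with the lowest p in the SF3a1 siRNA comparison with LPS were rare pieces of Oas3 and Oas2, named here after their values were seen. Bin 3 of Oas3 held 0.241% and 0.251% of all bin counts of Oas3 with control siRNA and LPS and 0.892%, 1.30% and 0.866% with SF3a1 siRNA and LPS, a relative log2 change of 1.99 (edgeR diffSpliceDGE adjusted p = 0.138). Without LPS it held 0.0678%, 0.192% and 0.207% with control siRNA and 0.505%, 0.662% and 0.412% with SF3a1 siRNA. The SF3a1 siRNA libraries were above the control libraries in both states, and the bin was called when SF3a1 siRNA with LPS replicate 1 was left out, in a fit that called 603 genes. Its coordinates could not be given because the annotation at hand splits Oas3 into another number of bins.

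Bin 8 of Oas2 lies at chr5:120735219-120735575 (mm10) and covers 357 nt of a 778-nt intron (120735219 to 120735996). The bin is part of an exon in 1 of the 4 annotated transcripts, and no annotated transcript holds the whole intron. It held 0.406% and 0.349% of bin counts with control siRNA and LPS and 0.980%, 1.54% and 1.32% with SF3a1 siRNA and LPS (relative log2 change 1.67, edgeR diffSpliceDGE adjusted p = 0.386). Without LPS the libraries overlapped, at 0.0645%, 0.517% and 0.384% with control siRNA and 0.831%, 0.398% and 0.359% with SF3a1 siRNA. Neither bin was past the adjusted threshold, and both made up a small share of their gene.

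**Figure D4:**
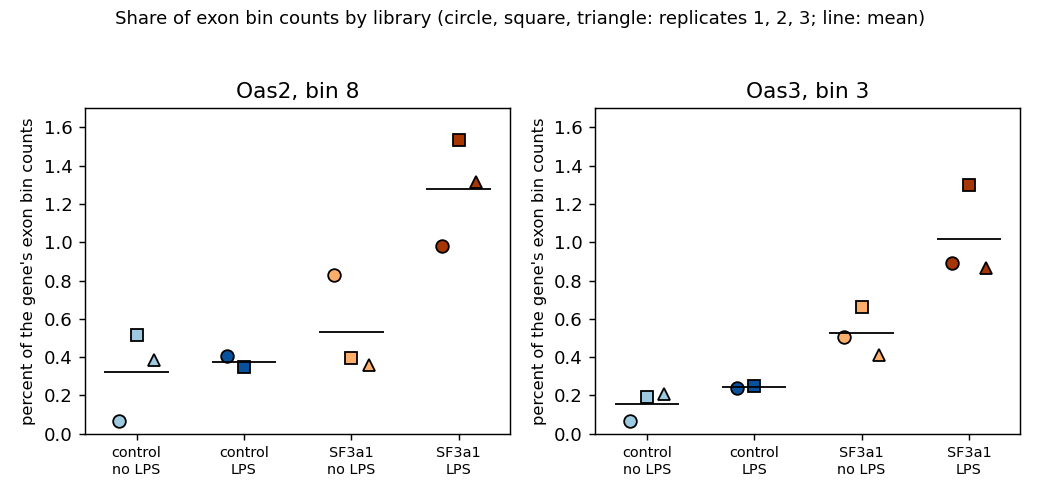
Share of the gene's exon bin counts (percent) held by bin 8 of Oas2 and bin 3 of Oas3 in each of 11 libraries, by group, with the mean of each group as a line. With LPS, both bins are higher in each of the 3 SF3a1 siRNA libraries than in the control libraries, at under 2% of the gene in every library.

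Of 3 genes linked to the oligoadenylate pathway, 1 was higher and 0 were lower with SF3a1 siRNA and LPS, beside 38.8% of all genes tested in either direction. Abce1, a ribosome recycling factor, had a log2 fold change of 0.01 (adjusted p = 0.974) with SF3a1 siRNA and LPS. Pde12, which degrades 2'-5'-oligoadenylates, was higher (0.44, SE 0.126, adjusted p = 0.0177), a call lost with no filter on low counts (adjusted p = 0.119). Akap7, the remaining gene of the list, was lower with LPS in control cells (-1.06, adjusted p = 0.00503) and was -0.14 (adjusted p = 0.714) with SF3a1 siRNA and LPS. Without LPS Akap7 was lower with SF3a1 siRNA (-0.60, adjusted p = 0.0774), a call lost in 8 of 19 alternatives, among them without any 1 of the 6 libraries without LPS (adjusted p up to 0.340).

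Oas1b and Oas1c were the other Oas genes with appreciable counts. Oas1b, annotated as a polymorphic pseudogene, was 48.4, 47.6 and 56.2 CPM with control siRNA and LPS and 14.9, 19.3 and 20.1 CPM with SF3a1 siRNA and LPS (-1.49, SE 0.189, adjusted p = 0.000135). Oas1c was 11.8, 9.78 and 13.1 CPM with control siRNA and LPS and 2.33, 1.51 and 1.59 CPM with SF3a1 siRNA and LPS (-2.66, SE 0.289, adjusted p = 5.74e-05). Neither set of libraries overlapped, and both genes were also lower with SF3a1 siRNA without LPS (-0.60 and -1.40, adjusted p = 0.0512 and 0.00389). The call of Oas1b without LPS was lost in 7 of 19 alternatives, among them no filter, limma-voom and leaving out control siRNA no LPS replicate 2 or 3 or SF3a1 siRNA no LPS replicate 1 or 3, with adjusted p from 0.0160 to 0.254 over all of them.

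Oas1d, Oas1e, Oas1f and Oas1h were near the limit of detection. With control siRNA and LPS their summed counts over 3 libraries were 30, 16, 46 and 54, and with SF3a1 siRNA and LPS they were 2, 0, 10 and 44. Oas1d and Oas1e did not pass the filter on low counts. Of the 6 other Oas genes 4 passed it, and of these 4 were called higher with LPS in control cells, beside 13.8% of all genes tested, and 3 lower with SF3a1 siRNA and LPS, beside 20.4%. The third of these, Oas1f (-2.26, adjusted p = 0.0408), was not called without SF3a1 siRNA with LPS replicate 2 or 3 (adjusted p = 0.112 and 0.138). In control cells the mean CPM of Oas1f and Oas1h was 12.4-fold and 39.3-fold higher with LPS. Both passed the filter through LPS libraries, where they were high, and Oas1f through those with control siRNA. The filter favoured the calls of Oas1f and Oas1h higher with LPS and of Oas1f lower with SF3a1 siRNA, so these calls lend the counts no support. With no filter, which let Oas1d and Oas1e be tested too, 5 of the 6 were called with SF3a1 siRNA and LPS. In that fit 19% of all genes tested were called in either direction.

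Of 6 genes listed for a link to the OAS-like proteins or to RNA sensing, called OASL partners here, 4 were lower with SF3a1 siRNA and LPS, beside 20.4% of all genes tested. These were Irf7, the interferon regulatory factor (-2.44, SE 0.433, adjusted p = 0.00114), and the RNA sensors Ddx58 (RIG-I, -1.94, adjusted p = 0.000344), Ifih1 (MDA5, -2.07, adjusted p = 0.000946) and Dhx58 (LGP2, -2.10, adjusted p = 0.000243). Mavs, the adaptor of the sensors (0.01, adjusted p = 0.983), and Trim25, a ubiquitin ligase for RIG-I (0.15, adjusted p = 0.627), were not called. Without LPS 1 of the 6 was higher with SF3a1 siRNA and 1 lower, beside 13.7% and 20.1% of all genes tested. Trim25 was higher (0.93, SE 0.195, adjusted p = 0.00359), in 19 of 19 alternatives too, and Dhx58 lower (-0.93, SE 0.300, adjusted p = 0.0364), a call lost with limma-voom and without control siRNA no LPS replicate 2 or 3 or SF3a1 siRNA no LPS replicate 1 or 3 (adjusted p up to 0.168). Irf7 was 1743, 817 and 979 CPM with control siRNA and LPS and 376, 135 and 141 CPM with SF3a1 siRNA and LPS, so that replicate 1 was the highest in both groups and no libraries overlapped.

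Ifnb1, the interferon-β gene itself, was lower with SF3a1 siRNA and LPS. It had 187, 346 and 464 reads with control siRNA and LPS and 21, 83 and 76 reads with SF3a1 siRNA and LPS (-2.67, SE 0.736, adjusted p = 0.0186), and at most 1 read in any library without LPS. Scaled to library size the LPS groups overlapped, at 4.92, 27.5 and 26.0 CPM with control siRNA and 0.636, 5.02 and 3.66 CPM with SF3a1 siRNA, since control replicate 1 was below SF3a1 replicate 2. Between LPS libraries of the same number, the SF3a1 siRNA library was always the lower. Of 11 genes of type I interferon induction and signalling, 7 were lower with SF3a1 siRNA and LPS, beside the same 20.4% (median of the 11, -0.90, against -0.04 over all genes). Among the 7, Socs1 (adjusted p = 0.0946), lost its call in 9 of 19 alternatives. Lower too were the transcription factor genes Stat2 (-2.20, SE 0.154, adjusted p = 5.19e-06) and Irf1 (-2.42, SE 0.326, adjusted p = 0.000189). Irf9, whose product binds that of Stat2, was not called (-0.18, adjusted p = 0.403), nor were the receptor genes Ifnar1 and Ifnar2 (0.19 and 0.15), while the kinase gene Jak1 was higher (0.39, adjusted p = 0.0641, lost in 4 of 19 alternatives, among them without control siRNA with LPS replicate 3 or SF3a1 siRNA with LPS replicate 3) and Tyk2 lower (-1.73, adjusted p = 0.000856). Without LPS, 5 of the 11 were lower and 1 higher with SF3a1 siRNA, beside 20.1% and 13.7% of all genes tested. The lower genes were Stat2 (-0.80, adjusted p = 0.00209), Irf3 (-0.58, adjusted p = 0.00262), Tyk2 (-0.86, adjusted p = 0.0432), Irf9 (-0.43, adjusted p = 0.0558) and Ifnar2 (-0.32, adjusted p = 0.0808), and Jak1 was higher (0.65, adjusted p = 0.00659). The calls of Tyk2, Irf9 and Ifnar2 without LPS were lost in 3, 6 and 10 of 19 alternatives.

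Other interferon-stimulated effectors fell with LPS and SF3a1 siRNA, 12 of 12 beside 20.4% of all genes tested, with a median of -2.19 beside -0.04. The largest falls were those of the chemokine gene Cxcl10 (-3.60, SE 0.507, adjusted p = 0.000254), Ifit2, which binds viral RNA (-3.36, SE 0.381, adjusted p = 7.03e-05), and the GTPase gene Mx1 (-3.13, SE 0.462, adjusted p = 0.000355). The smallest were those of Zc3hav1 (-0.96) and Eif2ak2, the kinase PKR (-1.24). The fall of Oasl2 (-3.07) was near the top of this range and that of Oasl1 (-0.70) below it. Without LPS 2 of the 12 were called lower, Ifit2 (-1.22, adjusted p = 0.0459) and Mx2 (-1.65, adjusted p = 0.0988), a share below the 20.1% of all genes tested, and this count depended on the model and on single libraries. It was 6 with no filter (16.7% of all genes called in either direction), 5 with the replicate block (47.1%), 5 with replicates 2 and 3 only (41.3%), 5 without control siRNA no LPS replicate 1 (31.5%), and 0 without control siRNA no LPS replicate 2 or 3 or SF3a1 siRNA no LPS replicate 3 (25.8%, 26% and 25.4%). Of 10 macrophage markers 2 were higher and 3 lower with SF3a1 siRNA and LPS, beside 18.4% and 20.4% of all genes tested. Fcgr1 was among the lower (-3.20, adjusted p = 6.14e-06). Csf1r, Spi1 and Cd68 went the other way without overlap, at 1.61, 1.52 and 1.17 times the mean CPM of control siRNA with LPS. The part of these changes in those of the OAS members was not tested.

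**Figure D5:**
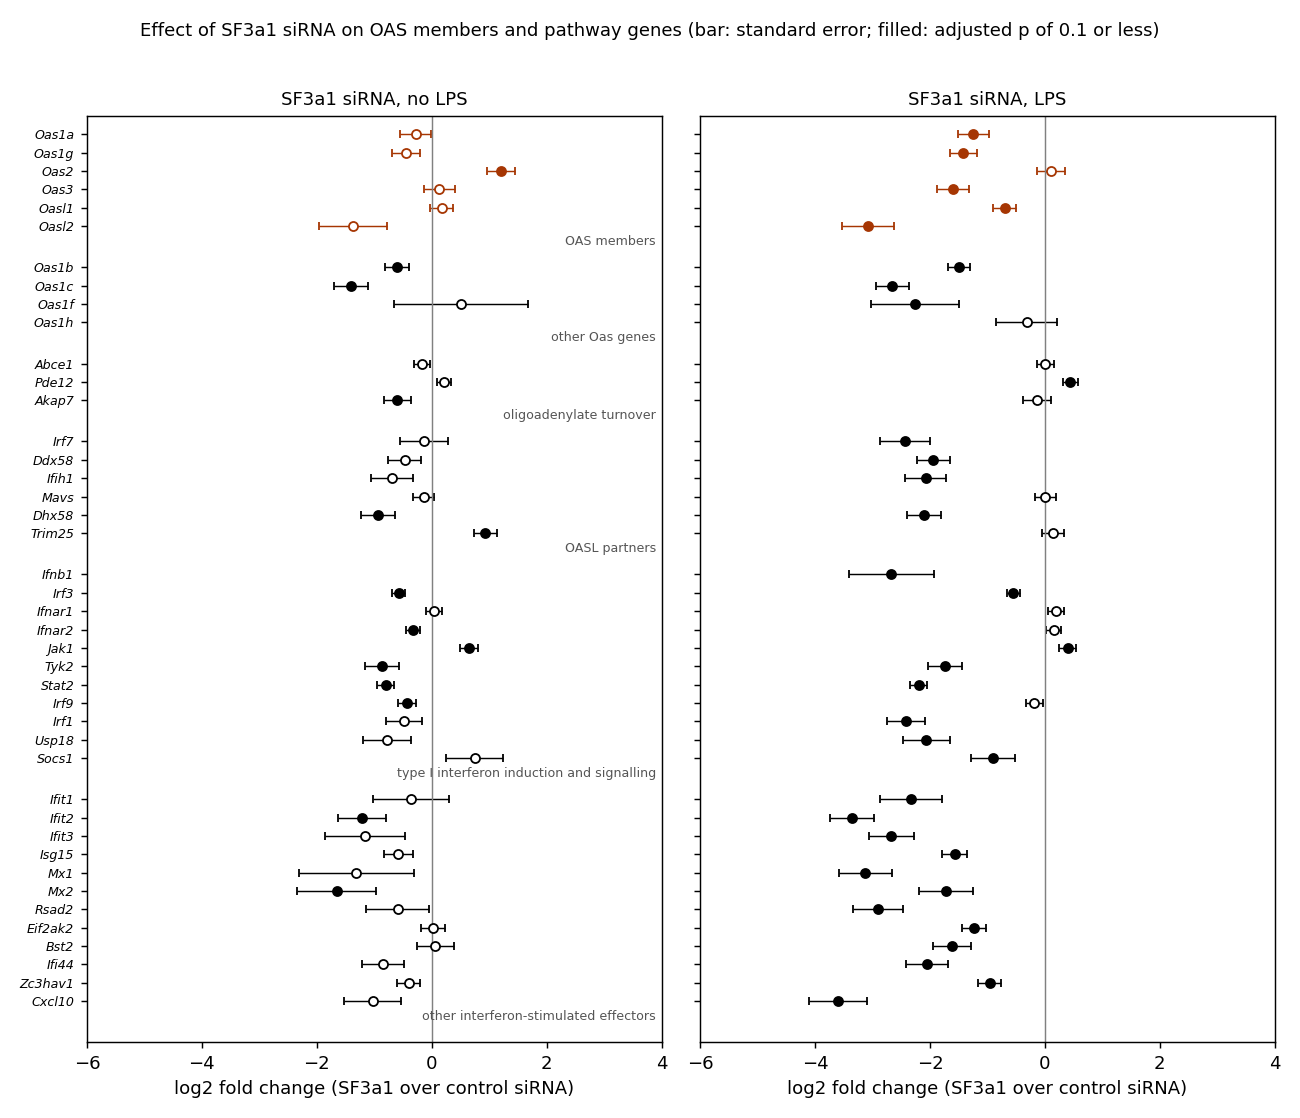
Log2 fold change (SF3a1 over control siRNA, horizontal axis) without LPS (left) and with LPS (right) for the members (top, coloured) and the tested pathway genes, with the list's name under its last gene, bars for the standard error and filled points where the adjusted p is 0.1 or less. With LPS all 12 effectors and 5 of the 6 members are below 0 and filled. Ifnb1 is left out on the left, where no library had more than 1 read.

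Genes other than the 6 members with the most similar profiles over the 12 libraries were found by the root mean square (RMS) difference of log2 CPM, each centred on its mean, among 9298 genes of at least 10 CPM on average. Oas1a was nearest to Ifi35, at an RMS difference of 0.133, followed by Stk40 and H2-T22, and Oas1g to Parp9 (0.263), Ifi35 and Gch1. Oas3 was nearest to Trafd1 (0.207), Uba7 and Eif2ak2. For the OAS-like genes the smallest differences were larger. Oasl1 was nearest to Socs3 (0.540), Igtp and Tnfrsf1b, and Oasl2 to Cd40 (0.586), Cmpk2 and Ifi209.

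Oas2 was nearest to Tor3a (0.359), Gm49339 and Ccl9. With SF3a1 siRNA and LPS their log2 fold changes were -0.37 (adjusted p = 0.0519), 0.13 (adjusted p = 0.606) and -0.07 (adjusted p = 0.857). With SF3a1 siRNA and no LPS they were 0.72 (adjusted p = 0.00168), 1.14 (adjusted p = 0.000447) and 0.80 (adjusted p = 0.0170). The genes were picked for profiles like that of Oas2 in these same libraries, so a likeness in these values follows from the choice. The mean profile of the 6 members was nearest to Trim30a (0.247), followed by Slc15a3, Ddx58, Oas1b and Helz2. Between members, Oas1a and Oas1g were nearest to each other (0.224), and Oas2 and Oasl2 were furthest apart (2.48).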

How the data were processed

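The authors sequenced polyadenylated RNA on the Ion Proton and, per the labels and their methods, kept reads of at least 30 nt, aligned them to mm10 with GSNAP and counted uniquely mapping reads with HTSeq. The deposited values used here are raw counts per gene (12 libraries) and per exon bin (11 libraries, control siRNA with LPS replicate 3 not analysed). Gene counts were analysed with edgeR 4.0.16 in R 4.3.3 (TMM scaling, filterByExpr, quasi-likelihood test, all 12 libraries, 1 mean per group), with Benjamini-Hochberg adjustment over 14983 genes and a threshold of 0.1, the study's false discovery rate. edgeR took the place of DESeq and DEXSeq, which were not used here. CPM values are TMM-scaled. Exon bins were tested with diffSpliceDGE. Ratios within libraries used counts plus 0.5. Gene models were from GENCODE and promoters from RefSeq. Alternatives used limma 3.58.1, DESeq2 1.42.0, no filter, a replicate block, fewer libraries and other scalings. The members, the gene lists and the tests were chosen with earlier results of these data known. All members and any listed gene could be named. Some genes of the lists are not reported here.

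Same-numbered libraries deviated together from their group means (correlation across genes from 0.143 to 0.600 over 18 pairs, against -0.523 to 0.345 over 36 other pairs). The numbers were therefore taken to pair the libraries in the replicate block and the paired ratio test. The main fits held no replicate term. No pair of replicates agreed within sampling noise (chi-square per degree of freedom from 8.85 to 117.5). Between 17.8% and 27.2% of the reads considered fell outside genes, with the 3 SF3a1 siRNA libraries without LPS above the 3 control libraries without LPS. The gene and exon fits were tested on simulated data.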

Additional observations from a re-analysis of the deposited data

Results flagged for a closer look

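The SF3a1 siRNA effect with LPS differed from that without LPS, by the interaction term of the edgeR model, for 1 member and 8 pathway genes. For Oas3 the difference was -1.74 on the log2 scale (adjusted p = 0.0387). Among the regulators it was -2.30 for Irf7 (adjusted p = 0.0743), -1.47 for Ddx58 (0.0913), -1.40 for Stat2 (0.0065) and -1.94 for Irf1 (0.0460). Among the effectors it was -2.14 for Ifit2 (0.0718), -1.27 for Eif2ak2 (0.0462), -1.68 for Bst2 (0.0897) and -2.57 for Cxcl10 (0.0827). Each was more negative with LPS. The number called depended on the model and on single libraries. Of the OASL partners 2 were called, against 5 with the replicate block, 5 with replicates 2 and 3 only, and 0 to 4 with 1 library left out (0 without control siRNA no LPS replicate 1 or 3, control siRNA with LPS replicate 3, SF3a1 siRNA no LPS replicate 2 or 3, or SF3a1 siRNA with LPS replicate 2 or 3). Of the type I interferon genes 2 were called, against 5, 4 and 1 to 2. Of the effectors 4 were called, against 7, 7 and 0 to 5 (0 without control siRNA with LPS replicate 3 or SF3a1 siRNA no LPS replicate 3). With no filter 4 partners, 4 type I interferon genes and 9 effectors were called, and with DESeq2 4, 2 and 6. Over all genes tested 3.47% were called, 3.25% with no filter, 6.58% with DESeq2, 11.7% with the block and 6.82% with replicates 2 and 3 only. The call of Stat2 was kept in 18 of 18 alternatives, with adjusted p of at most 0.0241. With 3 libraries in a group, single libraries were not tested as outliers.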

How the results depend on the processing

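Of 564 alternative values of the members' fold changes, 536 kept their direction and side of the threshold, 24 passed the threshold where the reported value had not, and 4 changed sign. The sign changes were for values near 0. The SF3a1 siRNA effect on Oasl1 without LPS became -0.091 with replicates 2 and 3 only and ran from -0.053 to 0.45 with 1 library left out (lowest without SF3a1 siRNA no LPS replicate 1). That on Oas2 with LPS became -0.14 with replicates 2 and 3 only and ran from -0.17 to 0.33 with 1 library left out (lowest without SF3a1 siRNA with LPS replicate 1).

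The number of members called was the same under all alternatives for LPS with either siRNA and for SF3a1 siRNA with LPS. Without LPS the 1 member (33.8% of all genes called) became 2 with no filter (16.7%), the replicate block (47.1%) and DESeq2 (36.4%), 3 with replicates 2 and 3 only (41.3%), and 1 to 2 with 1 library left out (25.4% to 36.9%). For the difference between the SF3a1 effects the 1 member became 6 with no filter, 4 with the replicate block and DESeq2, 3 with replicates 2 and 3 only, and 1 to 3 with 1 library left out. Members with a called exon bin (0 with SF3a1 siRNA and LPS, where 534 genes were called) became 1 with limma's diffSplice (463 genes). They were 0 to 1 with 1 library left out of a group of 3 (337 to 603 genes, and 603 where 1 member was called). Genes called with LPS in SF3a1 siRNA cells were 1598, against 3115 with the replicate block and 1050 to 2005 with 1 library left out. Genes called for the difference between the SF3a1 effects were 520, against 930 with no filter, 1756 with the replicate block, 966 with DESeq2, 1012 with replicates 2 and 3 only and 273 to 711 with 1 library left out. The cause was not tested. The replicate block changed no other call of a member. The ratio tests cannot reach an exact permutation p under 0.05 with replicates 2 and 3 only.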
